A study of Homo sapiens with 2 samples.

Results

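Lung identity genes, which mark the airway and alveolar cells of the organ, were followed in VMRC-LCD cells, an established lung adenocarcinoma (LUAD) line with neuroendocrine (NE) differentiation, after knockdown of the lncRNA *DRAIC*. The members were a fixed list of gene symbols, *NKX2-1*, *NAPSA*, *SFTPB*, *SFTPC*, *SFTPD*, *SLC34A2*, *SCGB1A1*, *SCGB3A2*, *FOXJ1* and *TP63*, and 9 of the 10 had a value among the 17687 named genes of the array. *TP63* has no row under its name in the annotation used here and was not analysed. Cells were transfected with a negative control siRNA (si-NC) or with siRNA no2 against *DRAIC* (si-*DRAIC*2), each at 20 nmol/L, and total RNA was taken after 72 h. Both arms carried an siRNA and the transfection reagent, and no untransfected cells were measured. Each arm is 1 Human Clariom S array of 1 bulk culture, so the spread between cultures is unknown and no test between the arms was possible. The comparison asks whether the lung identity program of these cells differed after *DRAIC* knockdown.

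In the lung, *NKX2-1* encodes a homeodomain transcription factor (also known as TTF-1) that specifies the respiratory epithelium and drives surfactant and secretoglobin genes. Alveolar type 2 cells make surfactant, club cells secrete secretoglobins, ciliated cells are programmed by *FOXJ1*, and basal cells, the stem cells of the large airways, are marked by *TP63*. In diagnostic pathology, TTF-1 and napsin A staining supports a lung origin of an adenocarcinoma.

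The arrays gave log2 signals after background correction and quantile normalization, with medians of 7.03 (si-NC) and 6.99 (si-*DRAIC*2) over 21448 transcript clusters, of which 3739 are unnamed here. *DRAIC* itself is among the genes with no named cluster, so the knockdown was not checked on these arrays. The epithelial markers *EPCAM* (log2 signal 15.92 in both arrays) and *KRT8* (16.10 and 16.17) gave bright signals, as did the NE markers *INSM1* (13.91 in si-NC and 13.43 in si-*DRAIC*2) and *CHGA* (12.41 and 12.17). The endothelial marker *PECAM1* (3.79 and 3.92) and the T cell marker *CD3E* (5.80 and 5.82) were dim. The fibroblast markers *COL1A2* (8.73 and 8.40) and *LUM* (10.46 and 10.91) and the leukocyte marker *CD68* (11.18 and 11.23) were brighter. The other measured fibroblast and leukocyte markers were dim. Mean log2 signals of both arrays were 5.19 for the fibroblast marker *COL1A1* and 5.01 for the leukocyte marker *PTPRC*. Among epithelial genes, *KRT19* (4.88 and 5.20) and *GRHL2* (4.39 and 4.85) were dim. *LUM*, *CD68*, *KRT19* and *GRHL2* were chosen for naming after their values were seen. As a yardstick for silence, 497 genes were taken from families presumed silent in this line. These families were beta-defensins, keratin-associated proteins and the olfactory, vomeronasal, taste and trace amine receptors. The 95th percentile of the 497 mean log2 signals was 6.06, here called the silent-family level. Of all named genes, 59.2% lay above it. Whether each family is silent in this line was not tested, and the 349 olfactory receptors alone gave a 95th percentile of 5.35. Probes of different genes bind with different strength, so members were set against this level and not ranked against each other.

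Most lung identity genes gave signals in the range of the silent families in both arrays, and none differed by more than 1.5-fold between them. Of the 9 measured members, 6 had a mean signal at or below the silent-family level, and 3, *NKX2-1*, *SFTPD* and *FOXJ1*, lay above it. With the 99th percentile (8.01) in its place, *FOXJ1* alone lay above. The list name thus describes what these genes mark in lung tissue, whereas in this line the club cell members and the alveolar members other than *SFTPD* lay within the range of genes presumed silent, and *SFTPD* lay little above the level (6.58 and 6.18 on the log2 scale). In bulk RNA, fewer cells with a transcript and less transcript per cell cannot be told apart.

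**Figure D1:**
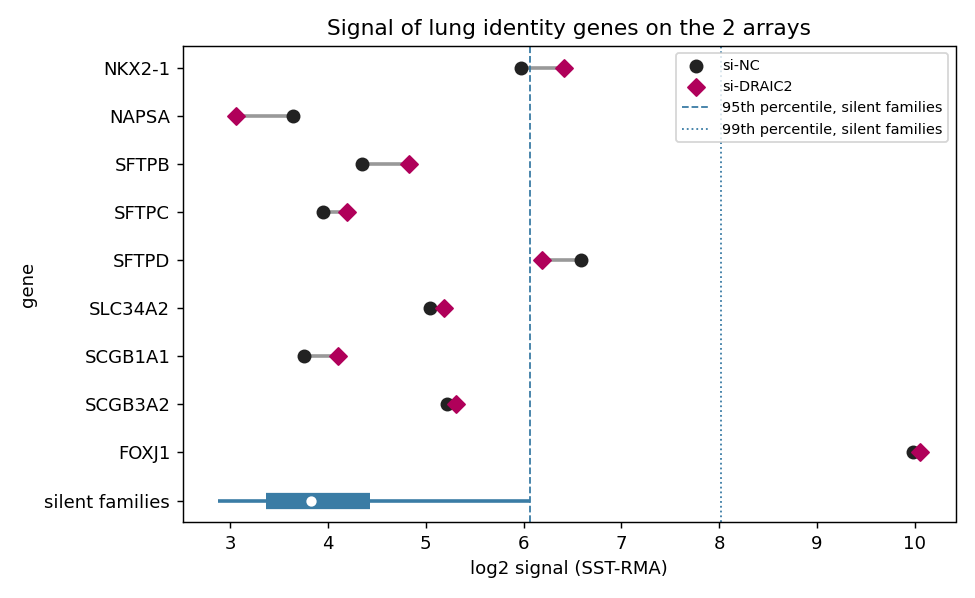
Log2 signal (x axis) of the 9 measured lung identity genes (y axis) in si-NC (circles) and si-*DRAIC*2 (diamonds), 1 array each, with the presumed silent families as a bar (thin line 5th to 95th percentile, thick line interquartile range, white dot median of the mean signal). *FOXJ1* lies near 10 on both arrays, and 6 members lie left of the dashed 95th percentile at 6.06.

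*NKX2-1*, the lineage factor, gave 5.98 on the si-NC array and 6.42 on the si-*DRAIC*2 array (log2 signal), or 62.9 and 85.3 on the linear scale. It lay just below the 95th percentile of the silent families in si-NC (6.06 on that array) and above it in si-*DRAIC*2 (6.17). This position depends on the level chosen. On both arrays *NKX2-1* lay above the 95th percentile of the olfactory receptors alone (5.35) and below the 99th percentile of the silent families (8.01). The log2 difference of 0.44 (1.36-fold) lay at percentile 85.2 of the differences of the 1000 named genes nearest in mean signal. The middle 95% of those genes ran from −0.85 to 0.80, so *NKX2-1* sat within the spread of equally bright genes.

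Among surfactant proteins, *SFTPB*, whose product spreads the surfactant film and is needed for breathing after birth, gave log2 signals of 4.34 (si-NC) and 4.82 (si-*DRAIC*2), which differ by 0.48 or 1.39-fold. *SFTPC*, which encodes the hydrophobic surfactant protein C made by alveolar type 2 cells, had 3.95 and 4.19, a difference of 0.24. *SFTPD*, a collectin of innate defence, had 6.58 and 6.18, a difference of −0.40. Thus *SFTPB* and *SFTPC* were below the silent-family level on both arrays and *SFTPD* above it on both, with differences at percentiles 88.9, 77.5 and 17.6 of genes of similar signal.

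*NAPSA*, which encodes the aspartic protease napsin A that processes pro-surfactant protein B, showed the largest difference in size among the members. Its log2 signals were 3.64 (si-NC) and 3.06 (si-*DRAIC*2), with a log2 difference of −0.58. The fold of 1.496 stopped just short of the 1.5-fold threshold. On the linear scale this is a step from 12.4 to 8.32, and 23.3% of the presumed silent genes had a lower mean signal. With 32 added to both linear signals the difference was −0.14. The gene lay at percentile 5.6 of genes of similar signal. *SLC34A2*, the sodium-phosphate cotransporter of alveolar type 2 cells, had 5.04 and 5.18, a difference of 0.14.

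The club cell members were likewise dim. *SCGB1A1*, which encodes the club cell secretory protein, gave log2 signals of 3.76 (si-NC) and 4.11 (si-*DRAIC*2), with a difference of 0.35 at percentile 84.1 of genes of similar signal. *SCGB3A2*, a secretoglobin of the airways, had 5.21 and 5.31, a difference of 0.10 at percentile 61.2. Both stayed below the silent-family level on both arrays.

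*FOXJ1*, the master regulator of motile cilia, was the member with a signal clearly apart from the silent families. Its log2 signals were 9.98 (si-NC) and 10.06 (si-*DRAIC*2), or 1013 and 1064 on the linear scale, and 99.4% of the presumed silent genes had a lower mean signal. The difference of 0.07 (1.05-fold) was the smallest among the members, at percentile 62.9 of genes of similar signal. The middle 95% of those genes ran from −0.72 to 0.63. Thus the member above both silent-family percentiles was nearly level between the arrays.

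Across the 9 measured members, 7 were higher and 2 lower in si-*DRAIC*2 at any size, with a median log2 difference of 0.14 beside −0.01 for all named genes, of which 48.6% were higher. The median of the members was 0.07 with 32 added to the linear signals, and also 0.07 over the 3 members above the silent-family level. Past 1.5-fold, 0 were higher and 0 lower. Of all named genes, 4.99% were more than 1.5-fold higher and 5.96% lower, so a count of 0 among 9 is near this background. At or below the silent-family level the shares were 6.38% higher and 7.12% lower, and above it 4.03% and 5.17%. For 0 of the 9 members did the difference leave the middle 95% of genes of similar signal.

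**Figure D2:**
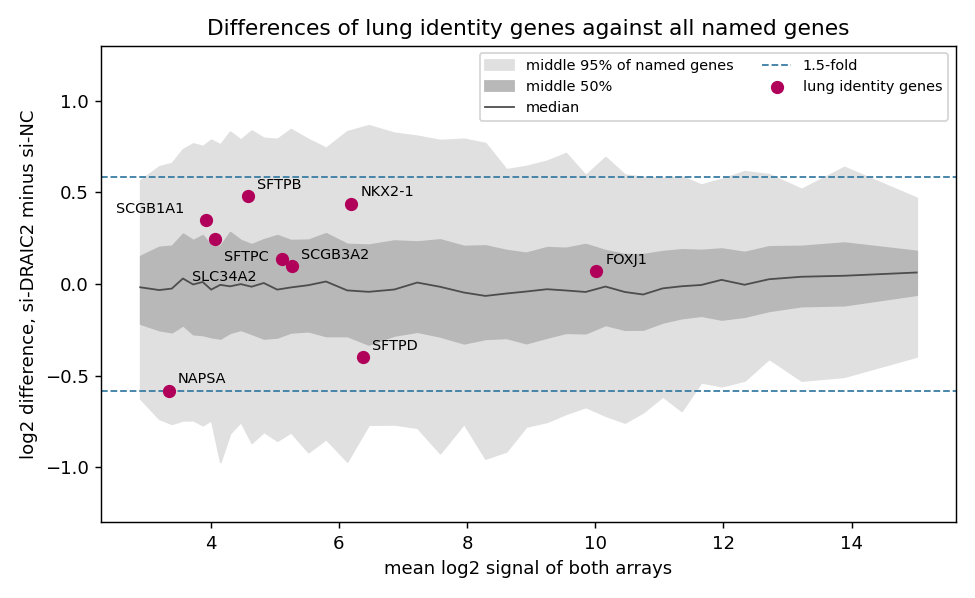
Log2 difference, si-*DRAIC*2 minus si-NC (y axis), against mean log2 signal (x axis) for the 9 measured members (points), over bands that hold the middle 95% and 50% of named genes in 40 bins of signal. All 9 points lie between the dashed 1.5-fold lines, with *NAPSA* at −0.58 on the lower edge.

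The promoters of *SCGB3A2* and *SFTPB*, a secretoglobin and a surfactant gene known as targets of NKX2-1, are shown beside their low signals. RefSeq windows (GRCh38.p14) from 250 bases before to 50 after a transcription start were matched by symbol for 7 of the 10 members, in 11 windows. Member windows on a single chromosome were left out by rule, and none was used for *FOXJ1*, *SCGB1A1* and *SFTPC*. Capitals mark TCAAG on either strand, a core of the sites that NKX2-1 binds. These are letter matches, and whether NKX2-1 acts through them was not tested. The *SCGB3A2* window lies at chr5:147878461-147878760 on the plus strand and the *SFTPB* window at chr2:85668150-85668449 on the minus strand.
SCGB3A2: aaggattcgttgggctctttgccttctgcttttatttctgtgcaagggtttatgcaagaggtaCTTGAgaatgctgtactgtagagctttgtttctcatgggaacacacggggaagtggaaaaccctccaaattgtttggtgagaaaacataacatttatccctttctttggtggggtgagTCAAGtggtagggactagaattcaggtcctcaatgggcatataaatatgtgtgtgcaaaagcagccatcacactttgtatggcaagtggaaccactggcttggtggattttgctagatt
SFTPB: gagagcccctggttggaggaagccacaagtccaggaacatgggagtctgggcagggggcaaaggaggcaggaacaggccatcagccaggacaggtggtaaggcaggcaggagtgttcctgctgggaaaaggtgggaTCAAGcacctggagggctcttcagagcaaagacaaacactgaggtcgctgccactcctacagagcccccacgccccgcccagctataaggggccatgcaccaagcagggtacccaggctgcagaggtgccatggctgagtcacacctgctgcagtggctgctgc

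In *SCGB3A2* the core starts 187 bases before the start on the minus strand and 69 bases before it on the plus strand, where it extends to the longer motif TCAAGTG. In the printed *SFTPB* window it starts 114 bases before the start, and the other *SFTPB* window, of a start farther upstream, holds 0 cores. The core was found in 6 of the 11 member windows, and TCAAGTG, which contains it, in 1. Of 35116 windows of all genes, 33.7% hold the core and 2.48% the longer motif on either strand. A match is a description of the letters. The array reads RNA and gives no measure of binding at these sites.

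The member windows also differed in base composition. Both *SFTPB* windows and those of *SFTPD* and *SCGB3A2* were poor in CpG, with ratios of observed to expected CpG of 0.04, 0.11, 0.07 and 0.15, beside a median of 0.58 over all windows. *SLC34A2* had 1.02 in its upstream window and 0.35 in the downstream one, and *NKX2-1* 0.61 and 0.54, so each gene had a window on either side of that median. *NAPSA* had 0.45 upstream and 0.21 downstream, and the single *TP63* window 0.49.

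Other genes of the lung epithelium were taken from lists of cell type markers, transcription factors, NKX2-1 targets and surfactant processing genes. Of 109 such genes besides the members, 101 were measured, and 38 of them (37.6%) lay above the silent-family level. Past 1.5-fold, 6 (5.94%) were higher and 1 (0.99%) was lower in si-*DRAIC*2, beside 4.99% and 5.96% of all named genes. The share higher was thus near that of all named genes and the share lower was below it, and the median difference was 0.07. Of the 38 above the level, 3 (7.89%) were higher and 0 lower, beside 4.03% and 5.17% of all named genes there. The other 3 higher genes and the 1 lower gene lay at or below the level.

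**Figure D3:**
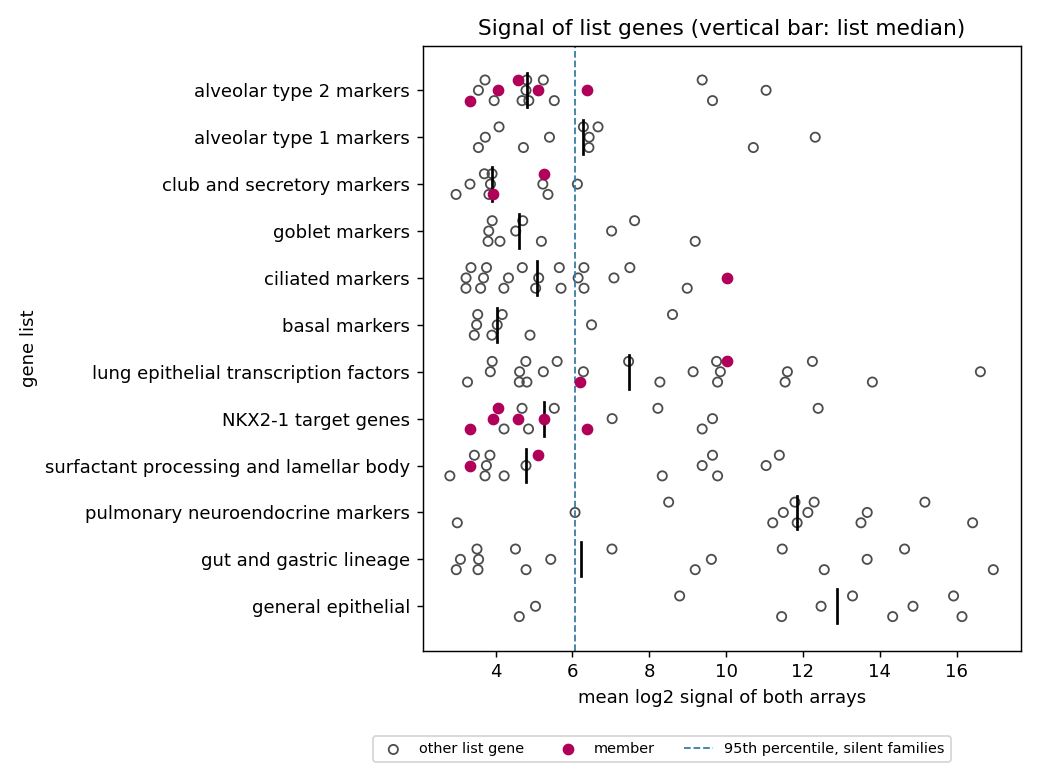
Mean log2 signal of both arrays (x axis) for the measured genes of 12 lists (y axis), with members filled, other genes open and a bar at each list's median. The alveolar type 2, club, goblet, ciliated and basal lists have medians left of the dashed silent-family level at 6.06, and the pulmonary NE list has its median at 11.85.

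In the alveolar type 2 list, 4 of 17 measured genes lay above the level, *SFTPD* among the members and, outside them, *ABCA3*, *LAMP3* and *LPCAT1*. *ABCA3*, the lipid transporter of lamellar bodies, gave 9.42 (si-NC) and 9.34 (si-*DRAIC*2) on the log2 scale. *LAMP3*, a lysosomal membrane protein of lamellar bodies, had 9.83 and 9.46, and *LPCAT1*, an enzyme of surfactant lipid synthesis, 11.09 and 10.99. All of these are also made outside the lung. The surfactant protein A genes lay below the level on both arrays, with 4.59 and 4.79 for *SFTPA1* and 5.36 and 5.70 for *SFTPA2*, a near-identical pair whose probes may not tell them apart. The proteases *CTSH* (3.58 and 3.87) and *PGC* (5.01 and 4.58) lay below the level as well.

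The list of NKX2-1 target genes includes the members *SFTPB*, *SFTPC*, *SFTPD*, *SCGB1A1*, *SCGB3A2* and *NAPSA*, so it is not separate from the member list. Of its 15 measured genes, 6 (40%) lay above the level, beside 59.2% of all named genes. Past 1.5-fold, 0 were higher and 0 lower, beside 4.99% and 5.96% of all named genes, and the median difference was 0.20. That median was 0.09 with 32 added to the linear signals and 0.02 over the 6 genes above the level. *LMO3*, a LIM-domain cofactor activated by NKX2-1 in LUAD, was bright, with 12.33 in si-NC and 12.46 in si-*DRAIC*2. *MYBPH*, another target described in LUAD, was dim, with 4.30 and 4.14.

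Of 23 measured lung epithelial transcription factors, 14 (60.9%) lay above the silent-family level, near the share of all named genes (59.2%). *FOXA2* (11.78 and 11.41) and *FOXA1* (9.86 and 9.69), pioneer factors of endoderm, and *SOX2* (13.83 and 13.78), the factor of the conducting airway, had signals well above the level. *SOX9* of the distal lung bud had 8.35 and 8.20. *GATA6*, an endoderm factor, was 1.59-fold higher in si-*DRAIC*2, with 8.81 and 9.48. *CEBPA* (4.78 and 4.86) and *ETV5* (5.29 and 5.20), both active in alveolar type 2 cells, lay below the level.

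Of 20 measured ciliated cell genes, 7 lay above the level, *FOXJ1* among them. *MCIDAS*, which acts upstream of *FOXJ1* in multiciliated cells, had log2 signals of 3.68 and 3.55, and *DNAI1*, an axonemal dynein chain, 5.83 and 6.47. That difference of 0.65 passed 1.5-fold, but not with 32 added to the linear signals (0.44). The cilia regulators *RFX3* (9.23 and 8.74) and *RFX2* (7.46 and 7.53) lay above the level and within 1.5-fold.

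In the basal list 2 of 9 measured genes lay above the level, in the goblet list 3 of 10, in the club and secretory list 1 of 11 and in the alveolar type 1 list 6 of 11. The basal cell keratins *KRT5* (3.31 and 3.71) and *KRT14* (3.46 and 3.44) lay below the level. *S100A2*, in the basal list, had 6.10 (si-NC) and 6.90 (si-*DRAIC*2), which differ by 0.80. The mucins *MUC5AC* (4.65 and 4.40) and *MUC5B* (5.40 and 4.99) and the secretoglobin *SCGB3A1* (5.87 and 6.39) did not pass 1.5-fold. Of the alveolar type 1 markers, the receptor *AGER* (4.76 and 4.69), the membrane glycoprotein *PDPN* (3.70 and 3.41) and the water channel *AQP5* (5.33 and 5.48) lay below the level, and the homeodomain protein *HOPX* (6.16 and 6.41) above it. *RTKN2* (10.77 and 10.65) and *SEMA3E* (12.19 and 12.45), from the same list and chosen for naming after their values were seen, lay well above the level, and 0 of the 11 genes passed 1.5-fold. The 4 genes of the lung lists past 1.5-fold below the silent-family level, *HHIP* (0.87), *FOXN4* (0.61), *CEBPD* (0.60) and *P2RY2* (−0.74), were chosen for naming after their values were seen, and 0 of the 4 passed with 32 added.

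**Figure D4:**
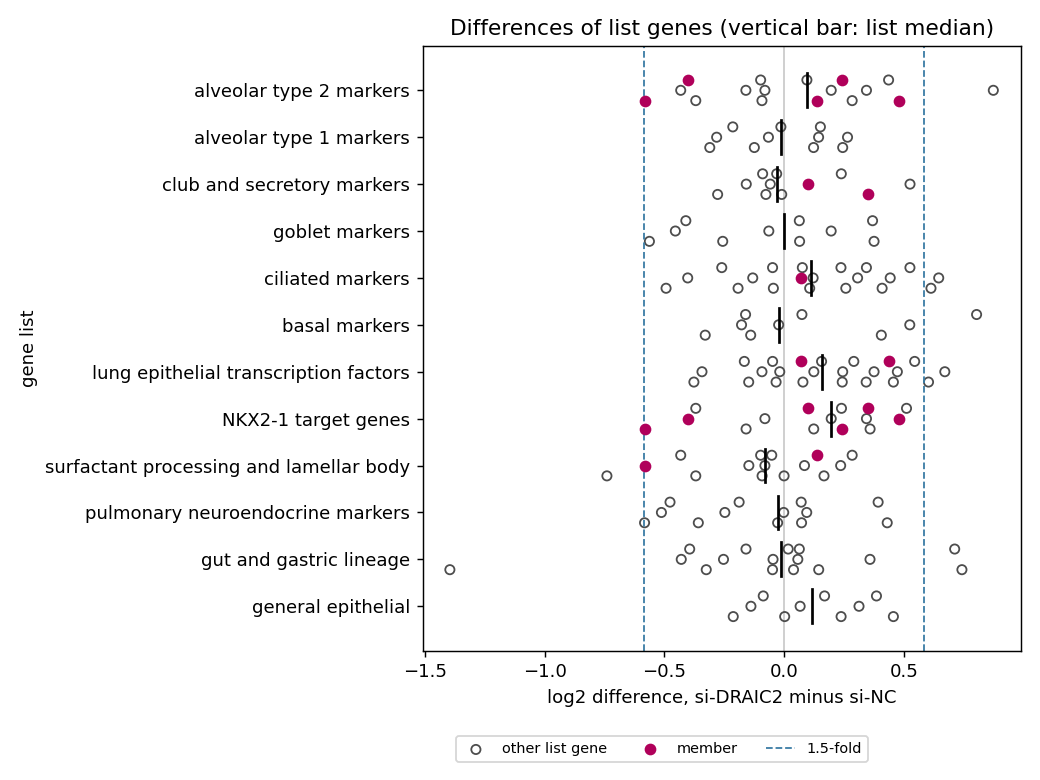
Log2 difference, si-*DRAIC*2 minus si-NC (x axis), for the measured genes of the same 12 lists (y axis), with members filled, other genes open and a bar at each list's median. The medians lie between −0.08 and 0.20, and the members all lie within the dashed 1.5-fold lines.

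Other lists spanned a wide range in how many genes lay above the silent-family level. It was 12 of 13 measured pulmonary NE markers and 8 of 10 general epithelial genes, but 2 of 7 fibroblast, 1 of 6 endothelial and 1 of 7 leukocyte markers, and *CDH1*, the epithelial cadherin, had 12.28 and 12.66. In the gut and gastric list 8 of 16 lay above, with *CDX2*, the intestinal homeobox factor, at 11.45 in si-NC and 11.47 in si-*DRAIC*2. In that list *CDH17*, an intestinal cadherin, had a difference of 0.74 and *GP2*, a granule glycoprotein, −1.40. Among endothelial markers *CLDN5* had −0.59, at the threshold. *REG4* of the gut and gastric list (0.71) and *PDGFRB* of the fibroblast list (−0.94) passed 1.5-fold below the silent-family level and were also chosen after their values were seen. With 32 added to the linear signals, *CLDN5* (−0.40), *REG4* (0.41) and *PDGFRB* (−0.30) did not pass. No test of these contrasts between lists was made.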

How the data were processed

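RNA from VMRC-LCD cells of either arm was read on a single Human Clariom S array each. The deposited values are log2 signals, which the authors computed by SST-RMA (background correction, quantile normalization, summarization) using the Transcriptome Analysis Console. Its version and the annotation build were not given in the sources used here. The columns were used as deposited. Rows were named through the platform annotation, whose symbols for 17709 named rows (17687 genes) all matched RefSeq (GRCh38.p14) by gene identifier. Rows of 1 symbol were averaged on the log2 scale.

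A gene counts as higher or lower past a linear fold of 1.5, as in the study's methods. No p-value can be computed with 1 array per condition. Named were all members, a written set of marker genes whatever their values, and list genes past 1.5-fold above the silent-family level. The members and lists were chosen with earlier results of these data known. Alternatives were a threshold of 2-fold, centring of the differences at a median of 0, a loess on signal (span 0.3), 32 added to linear signals, a low-signal filter, the brightest row per symbol, other silent levels and a window of 500 genes. The call rule was tested on simulated data without noise, which checks its arithmetic only. Python 3.11.15, numpy 2.4.6, pandas 2.3.3, statsmodels 0.14.6 and matplotlib 3.10.9 were used.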

Additional observations from a re-analysis of the deposited data

How the results depend on the processing

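No member passed the fold threshold in either direction under any of the alternatives run, and each member kept its sign. These were a 2-fold threshold, a median difference of all rows set to 0 and a loess on signal subtracted. The others were 32 added to both linear signals, only genes above the silent-family level, and the brightest row per symbol. A 2-fold threshold, the added 32 and the filter on level could not have added a member. Each measured member has 1 row, so the brightest row left it unchanged. Centring subtracted the median difference of −0.01, which moved *NAPSA* away from the threshold (−0.57) and *SFTPB* only to 0.49. A shift of that size could not have added a call. The loess could have, and under it the count stayed 0 in each direction. The members' differences ranged most for *NAPSA*, from −0.58 to −0.14, and for *SFTPB*, from 0.21 to 0.49, with the smallest size under the added 32 in both. *FOXJ1* stayed between 0.07 and 0.11. The number of members above the silent-family level was 1 with the 99th percentile in place of the 95th and 3 with olfactory receptors alone. In the other lung identity genes, 0 were higher and 0 lower at 2-fold, 2 higher and 0 lower with 32 added, and 3 higher and 0 lower among genes above the silent-family level, where fewer genes enter by construction. *CLDN5* no longer passed 1.5-fold with the median difference set to 0 (−0.57). Each value rests on 1 array per condition, so precision is limited by the number of arrays, and no replicate could be left out.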
